A study of Peromyscus californicus with 17 samples.

Results

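The peroxiredoxin family was taken as the 6 genes listed under the symbols Prdx1 to Prdx6, of 27786 genes in a table of lung RNA. The members were taken by symbol. The table covers 17 male Peromyscus californicus of the stock IS, a monogamous deer mouse, aged 12 to 15 months, with 1 RNA-seq library per animal. The 6 bonded animals (B1 to B6) had been paired for 4 months when lungs were collected. The 6 bond-disrupted animals (BD1 to BD6) had also been paired for 4 months, and their lungs were collected 7 days after the male had been taken out of the mating cage. The 5 virgin animals (V2 to V6) were of similar age and were housed in groups, so that mating experience, a change of cage and company in the cage cannot be told apart in these groups. No animal carried an engineered allele or received an agent. Each library came from a separate animal, but animals with the same number belonged to the same family, mostly as siblings, so that animals of different groups were not all independent.

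Peroxiredoxins reduce hydrogen peroxide and organic peroxides through a cysteine in their active site. In the typical 2-Cys members (Prdx1 to Prdx4) and in the atypical 2-Cys member (Prdx5), that cysteine forms a disulfide which thioredoxin reduces, and sulfiredoxin (Srxn1) repairs the overoxidized form of typical members. The 1-Cys member Prdx6 depends on glutathione instead and also has phospholipase A2 activity, by which it takes part in the turnover of surfactant lipid in alveolar type 2 cells and macrophages of the lung. Prdx1 and Prdx2 are mainly cytosolic, Prdx3 is mitochondrial, Prdx4 is in the endoplasmic reticulum or secreted, and Prdx5 is found in mitochondria, peroxisomes and the cytosol. No sequences of these genes or proteins were used here.

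The deposited unit is FPKM, in which the fragments of a gene are scaled by its length and by the size of the library, so a value depends on the length it was divided by. Each of the 17 columns of the table turned out to have been divided by the length of another gene, which stood 1 row above in the column of B1 and 1 row further up in each later column. The family was therefore described with FPKM recomputed from each gene's own length. All 102 values of the family (6 genes in 17 animals) came out as whole numbers of reads. The tolerance was 0.001 of a read and a small allowance for the digits of the deposited values. Lengths had been chosen to make values whole, so this was no separate check of them. The values ran from 1052 reads for Prdx4 in B4 to 85296 for Prdx6 in BD2. All 17 values of Prdx4, and 16 of 17 each of Prdx3 and Prdx5, were even numbers of reads. Of the other members, 7 of 17 values of Prdx1, 11 of Prdx2 and 6 of Prdx6 were even. At 1052 reads the counting error alone would be 3.08% of the value if each read counted singly and 4.36% if reads counted in pairs. Depth, the number of reads at which values turn whole, was 30788496 to 68231985 reads in bonded, 43859799 to 59397200 in bond-disrupted and 37963836 to 44895930 in virgin animals. Transcripts that define lung cells were abundant, with means of 19872 FPKM for Sftpc of alveolar type 2 cells, 92786 FPKM for Scgb1a1 of club cells and 1642 FPKM for Ager of alveolar type 1 cells. Of the heart transcripts, Myl7 was at 20.6 to 218 FPKM and Nppa at 0.0457 to 2.61 FPKM. Of the liver transcripts, Alb was at 6.96 to 28.3 FPKM and Apoa1 at 0.0462 to 1.79 FPKM. Over all genes tested, BD6, BD2 and BD1 lay farthest from their group's mean, by 0.260, 0.254 and 0.225 on average on the log2 scale, against 0.147 to 0.216 in the other animals.

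Prdx6, the 1-Cys member, was the member for which the choice of length mattered most. As deposited, it was listed at 91.4 to 547 FPKM in bonded animals, at 14615 to 24834 FPKM in bond-disrupted animals and at 539 to 17619 FPKM in virgins. The bonded and bond-disrupted animals did not overlap on that scale. The own length of Prdx6 was 2623 bases, but its values had been divided by 14209, 4920, 4171, 3988, 2104 and 2719 bases in B1 to B6, the lengths of 6 protein-coding genes. In BD1 to BD6 they had been divided by 77, 78, 83, 83, 67 and 63 bases, in V2, V3 and V4 by 82, 62 and 80 bases, in V5 by 626 bases and in V6 by 2717 bases. The rows above Prdx6 held 9 genes for small nucleolar RNAs (snoRNAs), and their short lengths fell on all 6 bond-disrupted animals, on 3 virgins and on 0 bonded animals. The mean log2 difference between bond-disrupted and bonded animals was 6.10 as deposited, of which 5.86 lay in the lengths and 0.24 in the level of Prdx6.

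**Figure D1:**
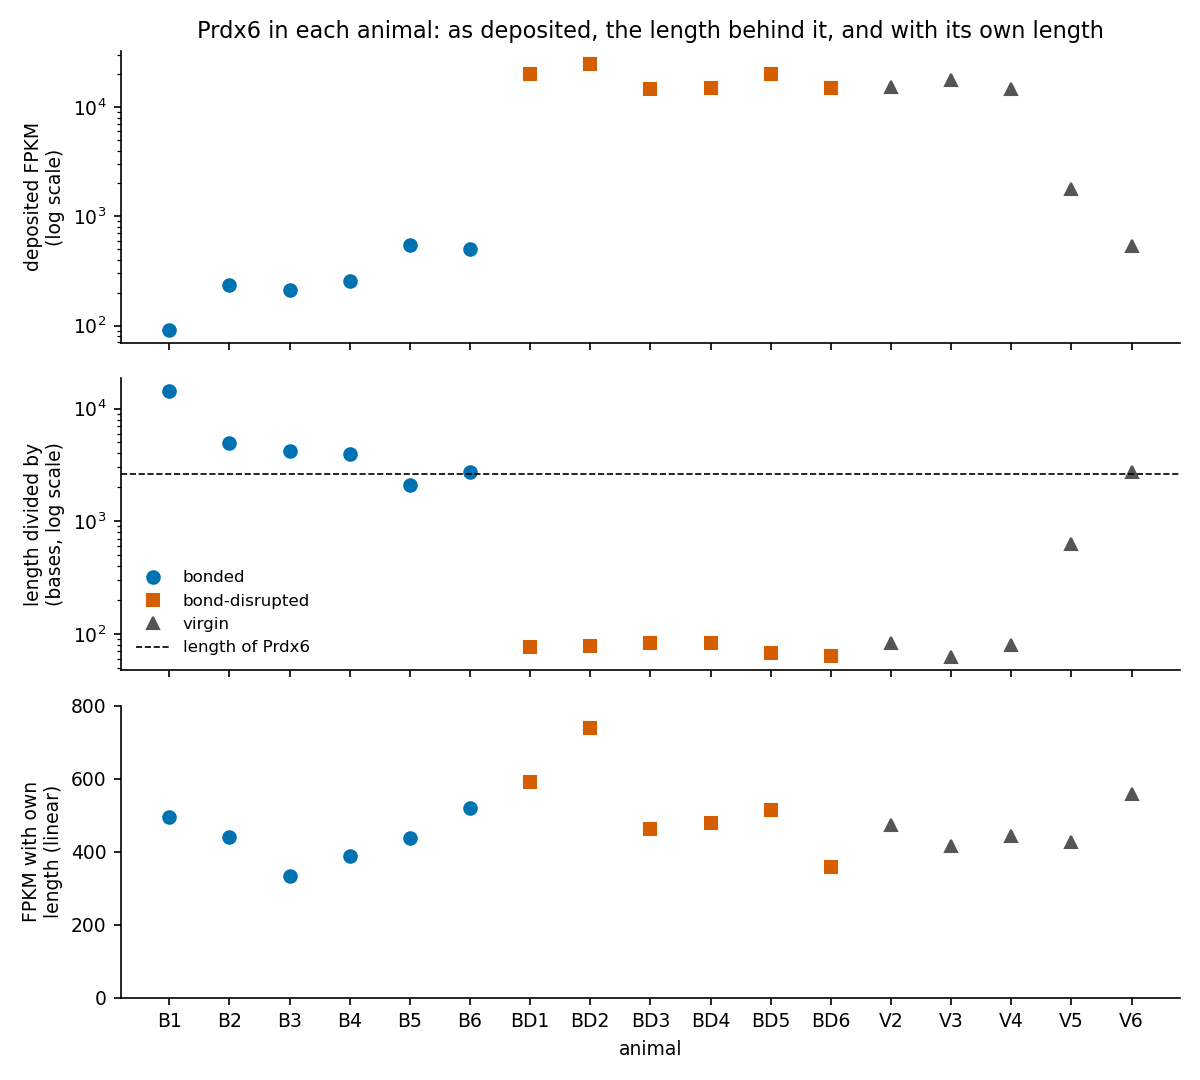
Prdx6 in each of the 17 animals, with the deposited FPKM on a log axis (top), the length it had been divided by in bases on a log axis (middle, with the own length of Prdx6 as a dashed line) and FPKM with the own length on a linear axis from 0 (bottom). The jump from bonded to bond-disrupted animals in the top panel is mirrored by lengths of 63 to 83 bases in the middle panel, and in the bottom panel all 3 groups hold values between 416 and 518 FPKM.

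With its own length, Prdx6 stood at 495, 441, 333, 389, 438 and 518 FPKM in B1 to B6. It stood at 591, 738, 462, 478, 515 and 358 FPKM in BD1 to BD6, and at 474, 416, 443, 427 and 558 FPKM in V2 to V6. All 3 groups overlapped, BD2 was the highest of all animals, and the lowest was the bonded animal B3. The mean was 436 ± 68.0 FPKM (SD, n = 6) in bonded, 524 ± 130 FPKM (n = 6) in bond-disrupted and 464 ± 57.2 FPKM (n = 5) in virgin animals. In a limma fit across 13770 genes, the log2 fold change of bond-disrupted against bonded animals was 0.24 (SE 0.15, adjusted p = 0.867), and its 95% interval spanned a 0.954-fold to a 1.47-fold change. Without BD2 the log2 fold change was 0.14, and leaving out other single animals gave up to 0.35. Within families, the bond-disrupted animal was higher than its bonded relative in 5 of 6 pairs, by a mean of 0.24 on the log2 scale, and an exact two-sided sign-flip test gave p = 0.25, where the smallest p that 6 pairs allow is 0.0312.

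Prdx6 was also the most abundant member, with a mean of 475 FPKM over the 17 animals, rank 82 of the 22975 genes whose values could be recovered in every animal. It made up 49.7% of the FPKM of the family on average, from 43.9% to 63.9% by animal. Prdx5 came next at 159 FPKM (rank 305), followed by Prdx1 at 141 FPKM (rank 353) and Prdx2 at 115 FPKM (rank 447). Prdx4 at 34.1 FPKM (rank 2083) and Prdx3 at 31.8 FPKM (rank 2250) were the lowest, and both still stood above more than 90% of these genes, with 9.06% and 9.79% of genes higher. The order of the 6 members by mean log2 level was the same in bonded, bond-disrupted and virgin animals.

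Neighbors in this order were compared within animals by exact two-sided sign-flip tests, adjusted over the 5 comparisons by the Benjamini-Hochberg method. Prdx6 was above Prdx5 in 17 of 17 animals, by 3.00-fold (exact test, adjusted p = 2.54e-05). Prdx1 was above Prdx2 in 17 of 17 animals by 1.23-fold, and Prdx2 was above Prdx4 in 17 of 17 by 3.38-fold (exact test, adjusted p = 2.54e-05 for each). This p rests on the smallest raw p that 17 animals allow, 1.53e-05. Prdx5 and Prdx1 did not differ beyond their spread, since Prdx5 was higher in 11 of 17 animals, by 1.11-fold (exact test, adjusted p = 0.0567). That p fell to 0.0319 without B3, 0.02 without BD3, 0.0385 without BD4 and 0.0455 without BD6. For Prdx4 and Prdx3 the answer depended on the lengths. Prdx4 was higher in 11 of 17 animals, by 1.07-fold or 0.10 on the log2 scale (exact test, adjusted p = 0.0766, or 0.0385 without BD4), but with lengths solved by least squares the log2 difference was 0.25 (exact test, adjusted p = 0.00042). The family thus fell into a top level held by Prdx6, a middle level of Prdx5, Prdx1 and Prdx2, and a low level of Prdx4 and Prdx3.

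**Figure D2:**
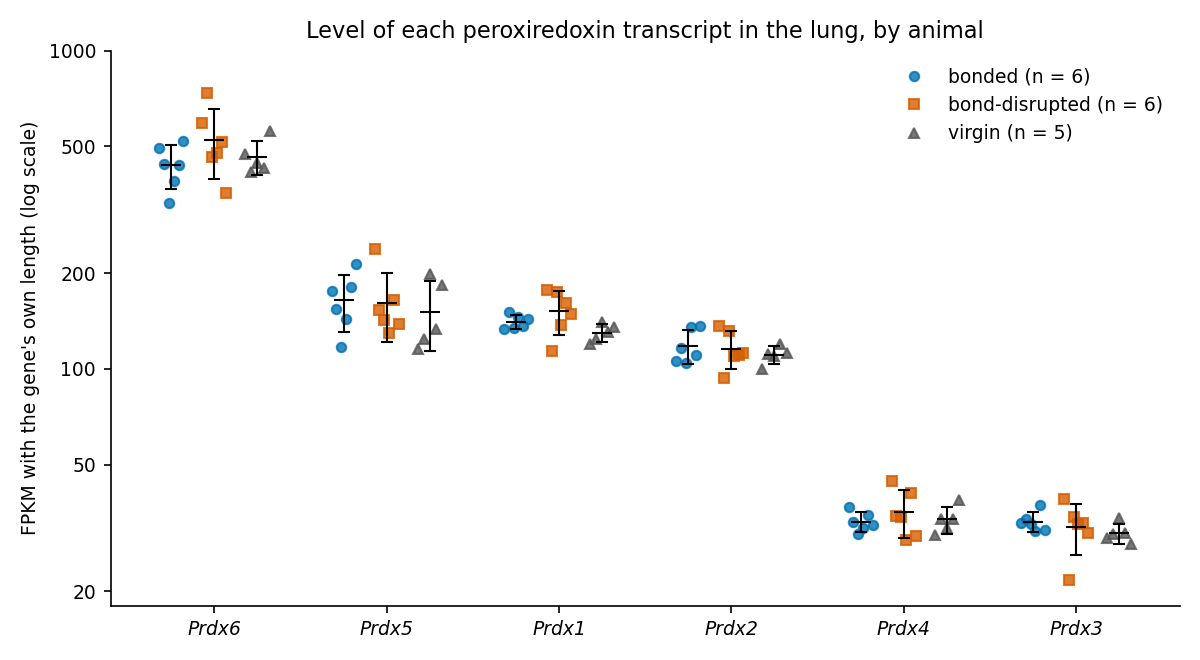
FPKM with the gene's own length (log axis) for each peroxiredoxin transcript, with 1 point per animal in bonded, bond-disrupted and virgin groups and the mean ± SD in black. Prdx6 lies between 333 and 738 FPKM, above every value of Prdx5, Prdx1 and Prdx2, and Prdx4 and Prdx3 lie between 21.6 and 44.3 FPKM.

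Prdx1 is a cytosolic typical 2-Cys member. Its own length was 1211 bases, and it stood at 133, 151, 135, 146, 136 and 143 FPKM in B1 to B6. It stood at 178, 114, 174, 137, 161 and 148 FPKM in BD1 to BD6, and at 120, 124, 140, 130 and 136 FPKM in V2 to V6. The bonded animals lay close together (141 ± 6.92 FPKM, SD, n = 6), the bond-disrupted animals were both the highest and the lowest of all (152 ± 24.1 FPKM, n = 6), and the virgins were at 130 ± 8.23 FPKM (n = 5). The log2 fold change of virgin against bond-disrupted animals was −0.21 (SE 0.10), with an unadjusted p of 0.0441 in limma. Over all genes tested, 4.28% reached an unadjusted p under 0.05 in that comparison, and the adjusted p of Prdx1 was 0.946. It was the only member comparison of 18 under 0.05 before adjustment. With the family number as a replicate block, the log2 fold change was −0.19 and the unadjusted limma p 0.0957.

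Prdx2, which is known for its abundance in red blood cells, had an own length of 947 bases. It stood at 106, 116, 104, 136, 111 and 136 FPKM in B1 to B6, at 136, 93.8, 132, 110, 111 and 112 FPKM in BD1 to BD6, and at 99.8, 112, 110, 120 and 112 FPKM in V2 to V6. The group means were 118 ± 14.5 FPKM (SD, n = 6), 116 ± 15.8 FPKM (n = 6) and 111 ± 7.10 FPKM (n = 5), and the ranges overlapped. As deposited, Prdx2 was listed at 1846 FPKM in B6, 1745 FPKM in BD1 and 1090 FPKM in V5, where it had been divided by 70, 74 and 104 bases, the lengths of genes for small RNAs. In the other animals it had been divided by 399 to 5204 bases.

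Prdx3 removes hydrogen peroxide in the mitochondrial matrix. Its own length was 1528 bases, and it stood at 32.7, 33.6, 32.6, 30.9, 37.3 and 31.0 FPKM in B1 to B6, at 39.0, 21.6, 34.1, 32.5, 32.8 and 30.4 FPKM in BD1 to BD6, and at 29.3, 30.3, 33.9, 30.5 and 28.1 FPKM in V2 to V6. BD2 was the lowest and BD1 the highest animal, and the group means were 33.0 ± 2.32 FPKM (SD, n = 6), 31.7 ± 5.72 FPKM (n = 6) and 30.4 ± 2.19 FPKM (n = 5). As deposited, its value reached 388 FPKM in B1, 347 FPKM in B5 and 432 FPKM in V3, all divided by lengths of small RNA genes of 107 to 164 bases, and it was 2.78 FPKM in V5, divided by 16765 bases. A 155-fold range as deposited became a 1.80-fold range with the own length.

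Prdx4 acts beside the protein disulfide isomerases and Ero1 oxidases that form disulfides in the endoplasmic reticulum. Its own length was 1080 bases, and it stood at 36.8, 32.9, 30.2, 31.6, 34.6 and 32.2 FPKM in B1 to B6, at 44.3, 34.4, 34.3, 29.0, 40.8 and 29.8 FPKM in BD1 to BD6, and at 30.1, 33.7, 31.7, 33.8 and 38.8 FPKM in V2 to V6. The bond-disrupted animals again held the highest and the lowest value, BD1 and BD4, and the group means were 33.1 ± 2.35 FPKM (SD, n = 6), 35.4 ± 6.08 FPKM (n = 6) and 33.6 ± 3.26 FPKM (n = 5).

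Prdx5, the atypical 2-Cys member, was the most variable member by SD on the log2 scale, with an own length of 889 bases. It stood at 176, 154, 117, 143, 181 and 213 FPKM in B1 to B6, at 238, 153, 143, 129, 165 and 138 FPKM in BD1 to BD6, and at 116, 124, 199, 134 and 183 FPKM in V2 to V6. The group means of 164 ± 33.4 FPKM (SD, n = 6), 161 ± 39.5 FPKM (n = 6) and 151 ± 37.3 FPKM (n = 5) were closer to each other than the animals within any group. Its SD of log2(FPKM + 1) over the 17 animals was 0.30, larger than that of 83.9% of the 6203 genes that averaged 10 FPKM or more. The SD of Prdx6 was 0.27, above 79.3% of these genes. From the lowest to the highest animal, Prdx6 had the wider range, 2.22-fold against 2.06-fold for Prdx5. Prdx1, Prdx2, Prdx3 and Prdx4 had SDs of 0.16 to 0.18, near the middle of these genes, whose median SD of log2(FPKM + 1) was 0.17.

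**Figure D3:**
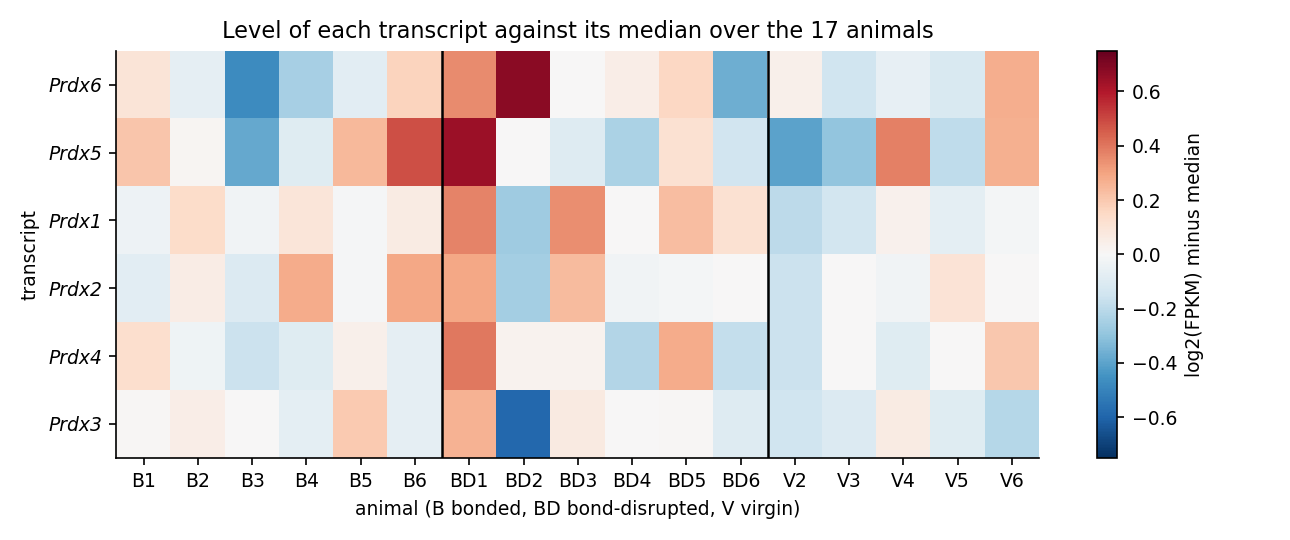
Difference of each transcript's log2(FPKM with own length) from its median over the 17 animals, with animals in columns, transcripts in rows and color from blue (below) to red (above). BD1 is above the median for all 6 transcripts, by 0.26 to 0.64, and BD2 is 0.68 above it for Prdx6 and 0.59 below it for Prdx3.

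The animals BD1 and BD2 stood out across the family in different ways. BD1 was above the median of the 17 animals for all 6 members, by 0.64 on the log2 scale for Prdx5, 0.39 for Prdx4, 0.37 for Prdx1, 0.35 for Prdx6, 0.29 for Prdx2 and 0.26 for Prdx3. BD2 was the highest animal for Prdx6 (0.68 above the median) and the lowest for Prdx1, Prdx2 and Prdx3, by −0.26, −0.25 and −0.59. In BD2, Prdx6 therefore held 63.9% of the family's FPKM. Both animals were in the bond-disrupted group, and the fits were repeated without each of them.

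The question of the study design, whether lung transcripts differ with bonding status, was put to the family in 3 limma comparisons on log2(FPKM + 1) across 13770 genes, where calling a gene took a change of 2-fold or more and, after Benjamini-Hochberg adjustment, a p under 0.1. All 6 members passed the filter of at least 1 FPKM in at least 1 animal. None of the 6 was called in bond-disrupted against bonded, in virgin against bonded or in virgin against bond-disrupted animals. The background was 0% in each comparison (0 of 13770 genes), with 814 genes (5.91%), 503 genes (3.65%) and 589 genes (4.28%) at an unadjusted p under 0.05. With limma's voom on the recovered reads of 15880 genes, 0 genes were called as well, with 1009, 559 and 708 genes at an unadjusted p under 0.05. The lowest adjusted p of a member in limma was 0.867 and the largest absolute log2 fold change was 0.24. The 95% intervals of all 18 member comparisons lay between a 0.701-fold and a 1.47-fold change, so that a 2-fold difference between group means was outside each of them.

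On the deposited values, limma called 40 of 18602 genes in bond-disrupted against bonded animals (0.215%), 113 in virgin against bonded (0.607%) and 35 in virgin against bond-disrupted (0.188%). Prdx6 was called in the first 2 of these comparisons, with log2 fold changes of 6.10 (SE 0.74, limma adjusted p = 0.00441) and 4.31 (SE 0.78, limma adjusted p = 0.0309). In virgin against bonded animals, 4.22 of the mean log2 difference of 4.31 lay in the lengths. The other 5 members were not called on the deposited values either. In 13 of their 15 deposited differences the lengths made up the larger part, as for Prdx5 in virgin against bond-disrupted animals, where −1.16 as deposited divided into −1.06 from the lengths and −0.09 from the level. The level was the larger part for Prdx2 in bond-disrupted against bonded animals, with −0.0325 of −0.0543, and for Prdx4 in virgin against bond-disrupted animals, with −0.0639 of −0.0930.

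**Figure D4:**
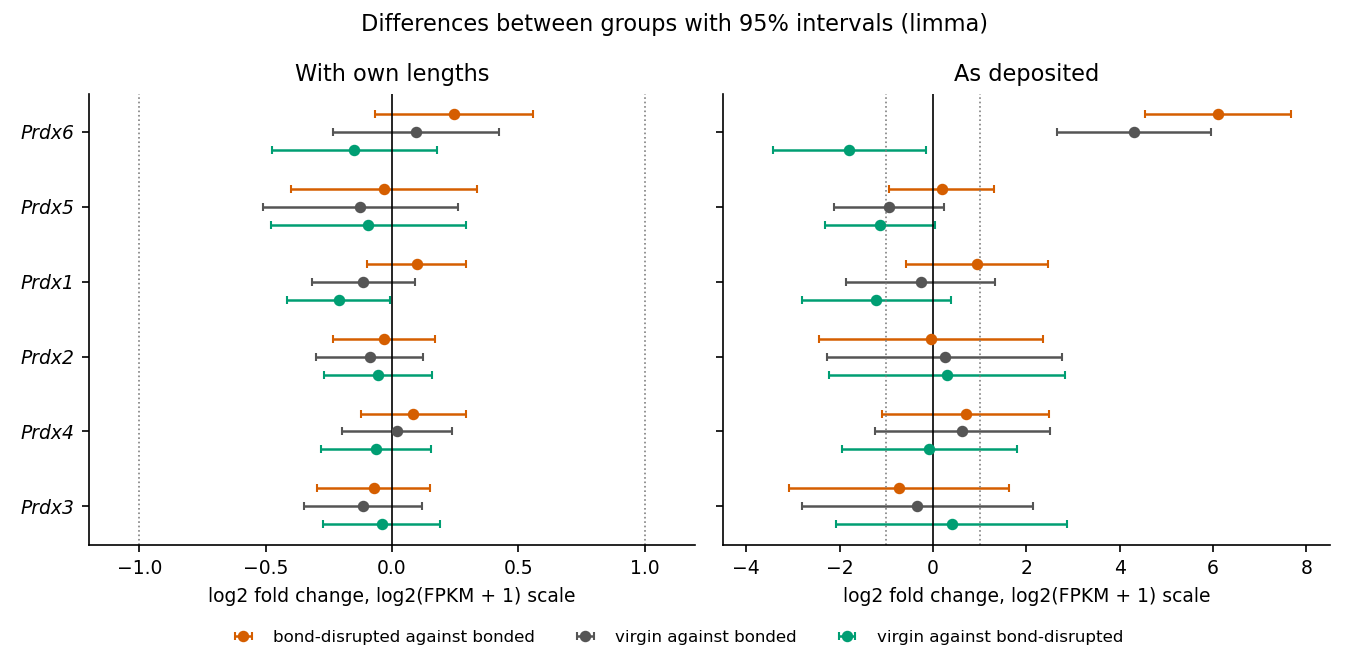
log2 fold changes of each member in the 3 comparisons with 95% intervals from limma, with own lengths (left) and as deposited (right, on a wider axis). Dotted lines mark a 2-fold change. With own lengths every interval lies inside the dotted lines, and as deposited the intervals of Prdx6 against bonded animals start at 4.53 and 2.67.

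The bond-disrupted animal and its bonded relative were also compared member by member. Prdx1 and Prdx4 were higher in the bond-disrupted relative in 4 of 6 pairs each, by a mean of 0.10 and 0.09 on the log2 scale. Both values moved with single animals. The log2 fold change of bond-disrupted against bonded animals in limma, 0.10 for Prdx1, was 0.05 without BD1, 0.06 without BD3 and 0.18 without BD2. That of Prdx4, 0.08, was 0.0169 without BD1, 0.04 without BD5, 0.13 without BD6 and 0.14 without BD4, and it was −0.0361 with lengths solved by least squares. Prdx3 was higher in 3 of 6, and Prdx2 and Prdx5 in 2 of 6. In exact two-sided sign-flip tests, p was 0.5 for Prdx1, 0.281 for Prdx4, 0.719 for Prdx3, 0.969 for Prdx2 and 0.812 for Prdx5.

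Members were then set against each other over the 17 animals, as 15 pairs of log2(FPKM) with permutation tests adjusted over the pairs. Prdx1 and Prdx2 correlated with Pearson r = 0.72 (permutation p = 0.00125, adjusted p = 0.0158) and Spearman rho = 0.64 (permutation p = 0.00624, adjusted p = 0.0468). Prdx1 and Prdx3 correlated with r = 0.68 (permutation p = 0.00211, adjusted p = 0.0158) and rho = 0.67 (permutation p = 0.00414, adjusted p = 0.0468). Without the animals farthest from the median of Prdx1, BD1 and BD3, r was 0.56 and 0.60. Within groups, as deviations from group means, both r were 0.77. Leaving out single animals gave an r of at least 0.64 and 0.59, both without BD2.

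The relation of Prdx4 with Prdx5 was less firm. It had r = 0.63 (permutation p = 0.00686, adjusted p = 0.0343) but rho = 0.60 with an adjusted permutation p of 0.0565, and r was 0.47 without BD1 and 0.49 without BD1 and BD5. Prdx6 had r = 0.56 with Prdx4 and 0.50 with Prdx5 (adjusted permutation p = 0.0725 and 0.102). Its r with Prdx3, −0.38, was 0.19 without BD2, −0.61 without BD1 and −0.12 without both. All members of an animal share 1 library and its scaling, and whether that adds to these correlations was not tested.

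**Figure D5:**
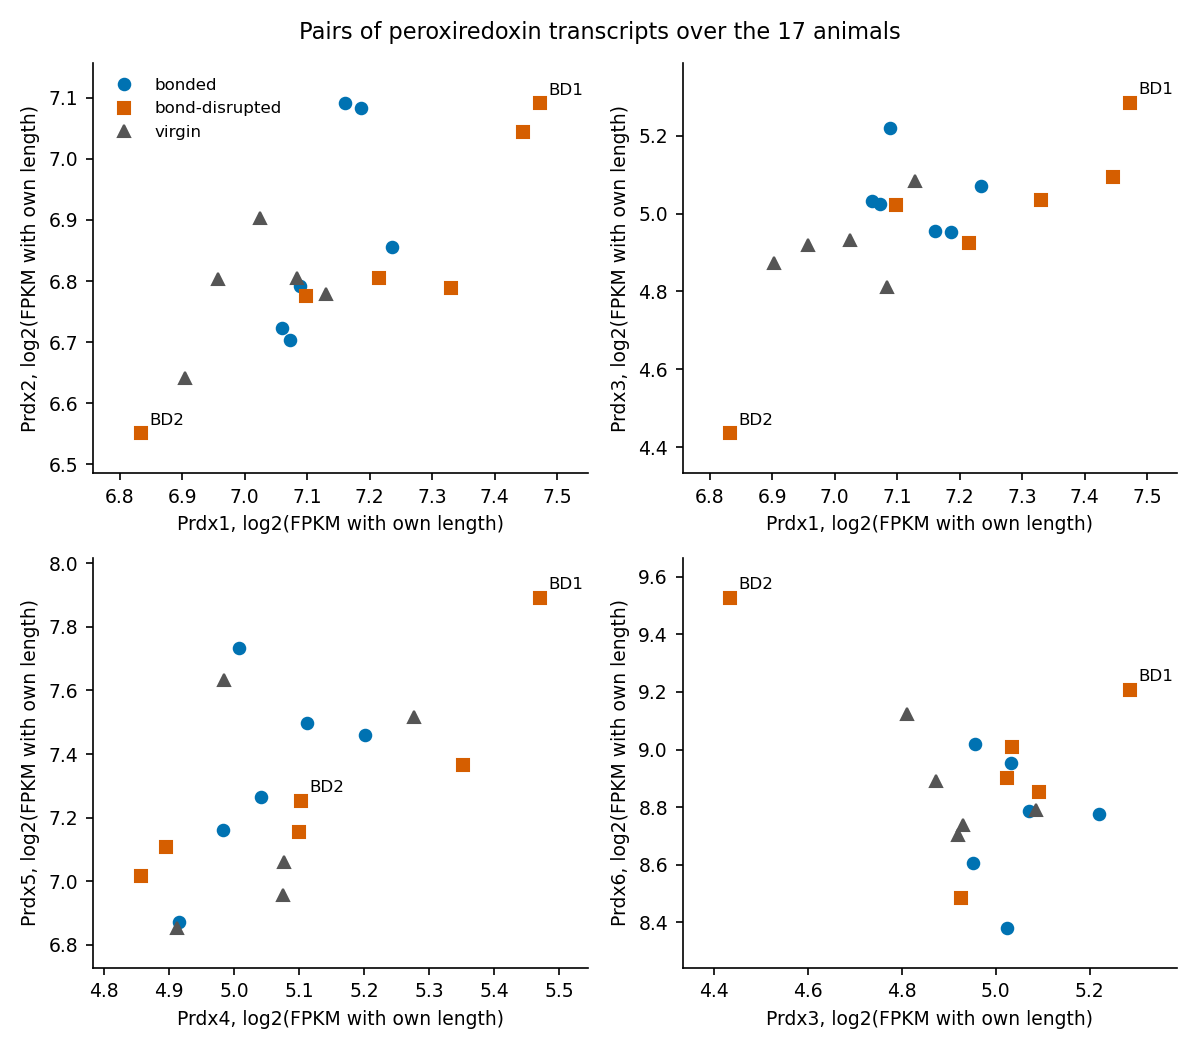
Pairs of members, each axis log2(FPKM with own length), 1 point per animal, with BD1 and BD2 named. Prdx1 rises with Prdx2 and Prdx3 (r = 0.72 and 0.68), Prdx4 with Prdx5 (r = 0.63), and the r of Prdx3 with Prdx6 is −0.38 with all animals, 0.19 without BD2 and −0.61 without BD1.

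Whole lung holds many cell types, and a transcript that falls because fewer cells of a type are present cannot be told apart from one that falls within each cell. The members other than Prdx2 were therefore set against the mean log2 level of markers of chosen cell types, in 6 relations adjusted together. Prdx6 had r = −0.55 with 6 of 8 type 2 alveolar cell markers (permutation p = 0.0217, adjusted p = 0.0433, rho = −0.51, permutation p = 0.0380, adjusted p = 0.0655). The summed level of these markers ranged from 15016 to 25561 FPKM in bonded, 15274 to 32655 FPKM in bond-disrupted and 18062 to 30687 FPKM in virgin animals. Prdx6 had r = 0.55 with the club cell marker Scgb1a1, the 1 of 3 listed markers that could be used (permutation p = 0.0197, adjusted p = 0.0433, rho = 0.50, permutation p = 0.0419, adjusted p = 0.0655). Scgb1a1 ranged from 49032 to 130210 FPKM in bonded, 61413 to 118800 FPKM in bond-disrupted and 53667 to 171960 FPKM in virgin animals.

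Prdx5 had r = 0.57 with 4 of 4 ciliated cell markers (permutation p = 0.0172, adjusted p = 0.0433, rho = 0.50, permutation p = 0.0437, adjusted p = 0.0655), whose sum was 32.6 to 105 FPKM in bonded, 36.4 to 59.4 FPKM in bond-disrupted and 25.7 to 90.9 FPKM in virgin animals.

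These 3 relations lay near the threshold of 0.05, and their permutations too took no account of family. Counted over all 7 relations that had been planned, with the relation not reported here entered at a p of 1, their adjusted p was 0.0506. Without the 2 animals farthest from the median score, r was −0.45 for Prdx6 with type 2 alveolar cell markers (adjusted permutation p = 0.272), 0.39 for Prdx6 with Scgb1a1 (adjusted permutation p = 0.291) and 0.35 for Prdx5 with ciliated cell markers (adjusted permutation p = 0.300). With 1 animal left out, r kept its sign, at −0.61 to −0.45, 0.45 to 0.60 and 0.47 to 0.75, and the adjusted p rose above 0.05 in 13 of 17 cases for each relation. For Prdx6 with type 2 alveolar cell markers it did so without any animal but B2, BD1, BD3 or V4, up to 0.126 without BD2. With Scgb1a1 it did so without any animal but B2, BD2, BD3 or V4, up to 0.126 without B3. For Prdx5 it did so without any animal but B2, BD1, BD2 or BD3, up to 0.123 without B3.

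The other 3 relations were Prdx4 with 3 plasma cell markers (r = −0.50, permutation p = 0.0408, adjusted p = 0.0612, rho = −0.53, adjusted p = 0.0655), Prdx1 with 3 macrophage markers (r = 0.26, permutation p = 0.309, adjusted p = 0.342, rho = 0.18) and Prdx3 with 4 cardiac muscle markers (r = −0.24, permutation p = 0.342, adjusted p = 0.342, rho = −0.32). Plasma cells form and secrete much disulfide-bonded protein. The adjusted p of Prdx4 was 0.0452 without BD2 and 0.0489 without BD2 and B5, the animals farthest from the median score, with r of −0.57 and −0.66.

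Genes with a level most like a member's over the 17 animals were taken from those with a mean of at least 10 FPKM that lay more than 17 rows away. For Prdx6 they were Bhlhe22 (r = 0.95), a transcription factor of the basic helix-loop-helix family, Vipr1 (r = 0.88), the receptor for vasoactive intestinal peptide, and Ndrg2 (r = 0.88). All 3 were highest in BD2 and lowest in BD6, with Bhlhe22 from 12.8 to 37.9 FPKM, Vipr1 from 108.5 to 400.6 FPKM and Ndrg2 from 30.2 to 101.4 FPKM. Without BD2 the r were 0.91, 0.86 and 0.79. The most alike genes were Psma4, a proteasome subunit (r = 0.91), Zmat2 and Strap for Prdx1, and Slc25a39, a mitochondrial carrier of glutathione (r = 0.85), LOC128124974 and Ppdpf for Prdx2. For Prdx3 they were Tmem165 (r = 0.91), Smim30 and Enoph1, and for Prdx4 LOC128119141 (r = 0.89), Ptpmt1 and Rab11b. For Prdx5 they were Psmd9, a chaperone of proteasome assembly (r = 0.92), Znf511 and Ndufb5, a subunit of respiratory complex I. These r are descriptions of the best matches among 6184 to 6202 genes, and BD1 held the highest value of 13 of the 18 genes named.

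The enzymes that keep 2-Cys peroxiredoxins reduced were measured beside them. Of 15 listed genes of the thioredoxin cycle, 11 were tested and 0 were called in any comparison. Thioredoxin itself (Txn) was the highest at 263 ± 41.0 FPKM (SD, n = 17), followed by mitochondrial thioredoxin (Txn2) at 42.7 ± 5.25 FPKM and thioredoxin reductase 1 (Txnrd1) at 28.1 ± 2.59 FPKM. Per length, Prdx6 was thus above thioredoxin, and Prdx5, Prdx1 and Prdx2 were below it. In bond-disrupted against bonded animals, 2 of the 11 genes reached an unadjusted p under 0.05, as did 5.91% of all genes tested. They were Txnrd1 with a log2 fold change of 0.18 (SE 0.07, limma adjusted p = 0.794) and the thioredoxin-like gene Txnl1 with 0.15 (SE 0.07, limma adjusted p = 0.839). The median log2 fold change of the list was 0.03, beside 0.01 over all genes tested. Txnrd3 (log2 fold change 0.25, SE 0.17) and sulfiredoxin (Srxn1, 0.23, SE 0.15) had the largest values of the list and limma adjusted p of 0.869 and 0.867. In virgin against bond-disrupted animals, Txnl1 was the 1 gene with an unadjusted p under 0.05, and in virgin against bonded animals 0 genes had one. Over all genes tested, 4.28% and 3.65% had one in these comparisons.

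Of 11 listed genes of oxidative folding in the endoplasmic reticulum, the setting of Prdx4, 10 were tested and 0 were called, with 0 at an unadjusted p under 0.05 in any comparison. The protein disulfide isomerases Pdia3 (214 ± 15.8 FPKM, SD, n = 17), P4hb (160 ± 11.54 FPKM) and Pdia6 (90.5 ± 10.4 FPKM) were the highest, all above Prdx4. The largest differences were in the peroxidases Gpx7, with a log2 fold change of −0.19 (SE 0.13) in virgin against bonded animals, and Gpx8, with −0.14 (SE 0.17) in that comparison. The limma adjusted p of both was 1.

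Nfe2l2 encodes the transcription factor that raises antioxidant genes under oxidative stress, Prdx1 and Srxn1 among them. Of 15 listed genes, 11 were tested and 0 were called. Ferritin heavy chain (Fth1) was at 1383 ± 166 FPKM (SD, n = 17), malic enzyme (Me1) at 108 ± 16.6 FPKM and Nfe2l2 itself at 56.8 ± 2.94 FPKM. Me1 had the largest difference of the list, at 93.5 ± 6.05 FPKM in bonded (n = 6), 122 ± 13.2 FPKM in bond-disrupted (n = 6) and 110 ± 15.03 FPKM in virgin animals (n = 5), with a log2 fold change of 0.37 in bond-disrupted against bonded animals (SE 0.09, unadjusted p = 0.000718, limma adjusted p = 0.794). The median of the list in that comparison was 0.07, beside 0.01 over all genes tested, and Txnrd1 was its other gene with an unadjusted p under 0.05.

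Of 12 listed sources and other removers of hydrogen peroxide, 5 were tested and 0 were called. Glutathione peroxidase 3 (Gpx3), the secreted form, was at 962 ± 212 FPKM (SD, n = 17), Gpx1 at 259 ± 50.6 FPKM, the lipid hydroperoxidase Gpx4 at 165 ± 23.2 FPKM and catalase (Cat) at 91.7 ± 17.5 FPKM. Per length, Gpx3 was above every peroxiredoxin and Gpx1 above all but Prdx6. Catalase had a log2 fold change of 0.29 in bond-disrupted against bonded animals (SE 0.14, unadjusted p = 0.0496, limma adjusted p = 0.842). Mitochondrial superoxide dismutase (Sod2) ranged from 27.2 FPKM in V2 to 145 FPKM in BD3 and had a log2 fold change of −0.65 in virgin against bond-disrupted animals (SE 0.35, limma adjusted p = 0.946).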

How the data were processed

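Lung total RNA of 17 animals was made into strand-specific libraries. Per the submitters' processing notes, the authors used FastQC, Trim Galore 0.4.5, STAR 2.7.2, SAMtools 1.5 and featureCounts of Subread 1.5.3. The genome build and annotation are not given in the sources used here. The values were deposited by the authors as FPKM, in 1 column per animal, with 0 columns of no sample. The study's methods name limma within iDEP.

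Library depths were set first, as those at which values divided by RefSeq lengths of small RNA genes came to whole reads. The most common low value was taken as a pair of reads. With depths fixed, gene lengths up to that of the RefSeq gene were solved, so that FPKM times length times depth came to whole reads. This settled 25636 of 27787 lengths and left 22975 genes with all 17 values. Of 346476 recovered values 98.5% were whole within 0.001 and a small allowance for the digits of the deposited values. Of 1475 lengths of small RNA genes, 1474 equaled those in RefSeq (assembly ASM782708v3, used for names, lengths and order). The depths had been set from these RefSeq lengths, so this match was no independent check. Genes without all 17 values, Sod1 and Txnip among them, were left out.

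FPKM with own lengths was tested as log2(FPKM + 1) with limma 3.58.1 in R 4.3.3, on genes that reached 1 FPKM in any animal, with the 3 groups in one fit, without a trend, and called at an adjusted p under 0.1 and 2-fold. Fold changes on this scale understate those of low genes. All tests were two-sided. Exact sign-flip tests compared members and relatives, and 100000 permutations tested correlations (Python 3.11.15, numpy 2.4.6, scipy 1.17.1, pandas 2.3.3, with figures in matplotlib 3.10.9). The steps were tested on simulated data.

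Members, gene lists and tests were chosen with earlier results of these data known. Text names the 6 members, per pathway list the called genes, the 3 highest and the 2 with the largest fold change, and per member the 3 most alike genes. Txnl1, marker genes and genes at an unadjusted p under 0.05 were named beyond this rule, after their values were seen. Alternatives were lengths by least squares, deposited values, voom, a pseudocount of 0.1, other filters, a trend, 2 groups only, median-ratio or quantile scaling, the animals' number as a replicate block, other thresholds and leaving out each animal. Of 7 planned relations with markers, that of Prdx2 needs a gene not reported here and was left out after its value was seen, so p-values were adjusted over 6 relations.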

Additional observations from a re-analysis of the deposited data

Results flagged for a closer look

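Among 18 groups of values (6 members in 3 groups), 1 animal stood apart from the others of its group. For Prdx5, the bond-disrupted animal BD1 was at 238 FPKM and the next of its group at 165 FPKM. The gap was 0.671 of the range of the group, above the 95% limit of Dixon for 6 samples, and chance gives such a gap in about 1 in 20 groups. BD1 was above the family's medians for the other 5 members too, and its depth of 47867264 reads was inside the range of the other animals. The cause was not tested.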

How the results depend on the processing

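With each alternative other than the deposited lengths and the omission of 1 animal, 0 genes were called in each comparison and no member was. As deposited, 40, 113 and 35 genes were called, and Prdx6 became a call against bonded animals. Counts ranged from 0 to 1 when single animals were left out, with 1 gene without B4 in bond-disrupted against bonded and in virgin against bonded animals, and 1 without BD6 in virgin against bond-disrupted animals.

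Small fold changes of uncalled members changed sign, which limits any statement on their direction. With least-squares lengths, the log2 fold change became 0.0208 for Prdx2 and −0.0361 for Prdx4 in bond-disrupted against bonded animals, −0.11 for Prdx4 in virgin against bonded animals and 0.00398 for Prdx3 in virgin against bond-disrupted animals. As deposited, it became 0.25 and 0.30 for Prdx2 in virgin against bonded and against bond-disrupted animals, 0.40 for Prdx3 in virgin against bond-disrupted and 0.19 for Prdx5 in bond-disrupted against bonded animals. With quantile normalization, Prdx2 in virgin against bond-disrupted animals became 0.0149. Without single animals, bond-disrupted against bonded spanned −0.0815 to 0.0256 for Prdx2, −0.14 to 0.0291 for Prdx3 and −0.15 to 0.0473 for Prdx5. Virgin against bonded spanned −0.0305 to 0.0579 for Prdx4, and virgin against bond-disrupted spanned −0.14 to 0.0202 for Prdx3, −0.12 to 0.00402 for Prdx4 and −0.20 to 0.0248 for Prdx5.

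For the order of levels, the log2 differences without single animals were 1.54 to 1.61 for Prdx6 over Prdx5, 0.12 to 0.18 for Prdx5 over Prdx1, 0.28 to 0.31 for Prdx1 over Prdx2, 1.74 to 1.78 for Prdx2 over Prdx4 and 0.0642 to 0.12 for Prdx4 over Prdx3. As deposited, Prdx1 over Prdx2 turned to −0.63 and Prdx4 over Prdx3 to −1.40. Least-squares lengths put Prdx4 over Prdx3 at 0.25, past the threshold. Within bonded animals, Prdx6 over Prdx5 was 1.42, Prdx1 over Prdx2 was 0.26 and Prdx2 over Prdx4 was 1.83. Within bond-disrupted animals these were 1.70, 0.39 and 1.71, and within virgins 1.64, 0.23 and 1.72. None of these passed 0.05. For the 5 virgins the smallest exact p is 0.0625, and in each group of 6 these 3 tests reached the smallest exact p of 0.0312, which adjustment over the 5 tests raised to 0.0521.

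For the correlations with marker scores, r without single animals was −0.61 to −0.45 for Prdx6 with type 2, 0.45 to 0.60 for Prdx6 with club, −0.57 to −0.43 for Prdx4 with plasma, 0.15 to 0.38 for Prdx1 with macrophage, −0.34 to −0.19 for Prdx3 with cardiac and 0.47 to 0.75 for Prdx5 with ciliated markers. As deposited, r was 0.27 and −0.24 for Prdx6 with type 2 and club markers, 0.34 for Prdx4 and −0.27 for Prdx5. With least-squares lengths, Prdx6 with club markers was 0.44 and Prdx3 with cardiac markers 0.0531. Without the 2 farthest animals, r was −0.45 and 0.39 for Prdx6, −0.66 for Prdx4 and 0.35 for Prdx5.

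The animals' number marks families, and 7 of 16 same-numbered pairs had deviations from group means that correlated above 0.1 (r from −0.36 to 0.44, mean 0.07, against −0.01 for other pairs). Where the number was shared between the bonded and bond-disrupted groups, r was above 0 in 6 of 6 cases (0.0393 to 0.439). Same-numbered pairs with a virgin fell on both sides of 0, from −0.36 for B2 with V2 to 0.24 for B6 with V6. Of the 17 animals, 7 correlated best with their own number. The fit with the number as a replicate block called 0 genes in each comparison and changed no call of a member. Each member had at least 1052 reads in every animal.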
